A study of Mus musculus with 4 samples.

Results

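Calcium and cyclic nucleotide signalling enzymes were followed in mouse hippocampal CA1 on 4 expression arrays. The members are the probe sets whose single gene symbol begins with the stem of calmodulin, a calcium/calmodulin-dependent kinase, protein kinase C, a catalytic or regulatory subunit of protein kinase A, an adenylyl cyclase, a numbered phosphodiesterase or calcineurin. Such symbols were carried by 55 of the 12488 probe sets, which read 43 of the 8251 genes named by a single symbol. The name rule uses no measured value. The name rule also takes in 3 genes whose products are not enzymes of these classes, Prkcsh, Pde4dip and Pde6d. Their values are described apart, but counts, shares and medians over the members include them.

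Each array holds total RNA from CA1 of young male C57BL/6J mice that had received foot shocks, at 1, 2, 4 or 6 h after the last of them. All 4 groups shared the same treatment: entry into an unfamiliar context 2 h ahead of training, then 3 shocks of 0.5 mA and 1 s at intervals of 2 min. As labelled, the groups differ only in the hour of RNA collection, each hour has 1 array, and the number of animals behind a sample is not given in the labels. Mice without shock were not analysed here, so values are set against the other hours and no test of significance could be run.

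Calcium entering a neuron through synaptic receptors binds calmodulin, which then switches on calcium/calmodulin-dependent kinases and the phosphatase calcineurin, and some adenylyl cyclases. Cyclases make cyclic AMP, which frees the catalytic subunits of protein kinase A from its regulatory subunits, and phosphodiesterases break cyclic AMP and cyclic GMP down again. Protein kinase C answers to diacylglycerol, in its classical forms together with calcium. In CA1 pyramidal neurons these enzymes are known for their part in synaptic plasticity and in the formation of contextual memory.

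Intensities are the deposited linear values, scaled so that the arrays share a trimmed mean of 495.5. An intensity below 100.8, the 40th percentile of the values of all probe sets other than controls, counts as below the floor and is only a bound. The intensity of a probe set depends on how well its oligonucleotides bind, so levels are compared between arrays for each probe set and not between genes. Sets of 4 values are in the order 1, 2, 4 and 6 h throughout. Of the 55 member probe sets, 36 lay above the floor on all 4 arrays, or 65.5% against 51.9% of all 12422 probe sets other than controls. These 36 read 29 genes. Another 10 were above it on 1 to 3 arrays, and 9 were below it on all 4. From a list of 46 isoforms known in brain signalling, 14 had no probe set with their own single symbol and are not analysed here, among them Calm3, Camk1, Camk2g, Camkk1, Camkk2, Prkar2b, Adcy1, Adcy5, Pde2a, Pde4a, Pde4d and Pde10a.

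**Figure D1:**
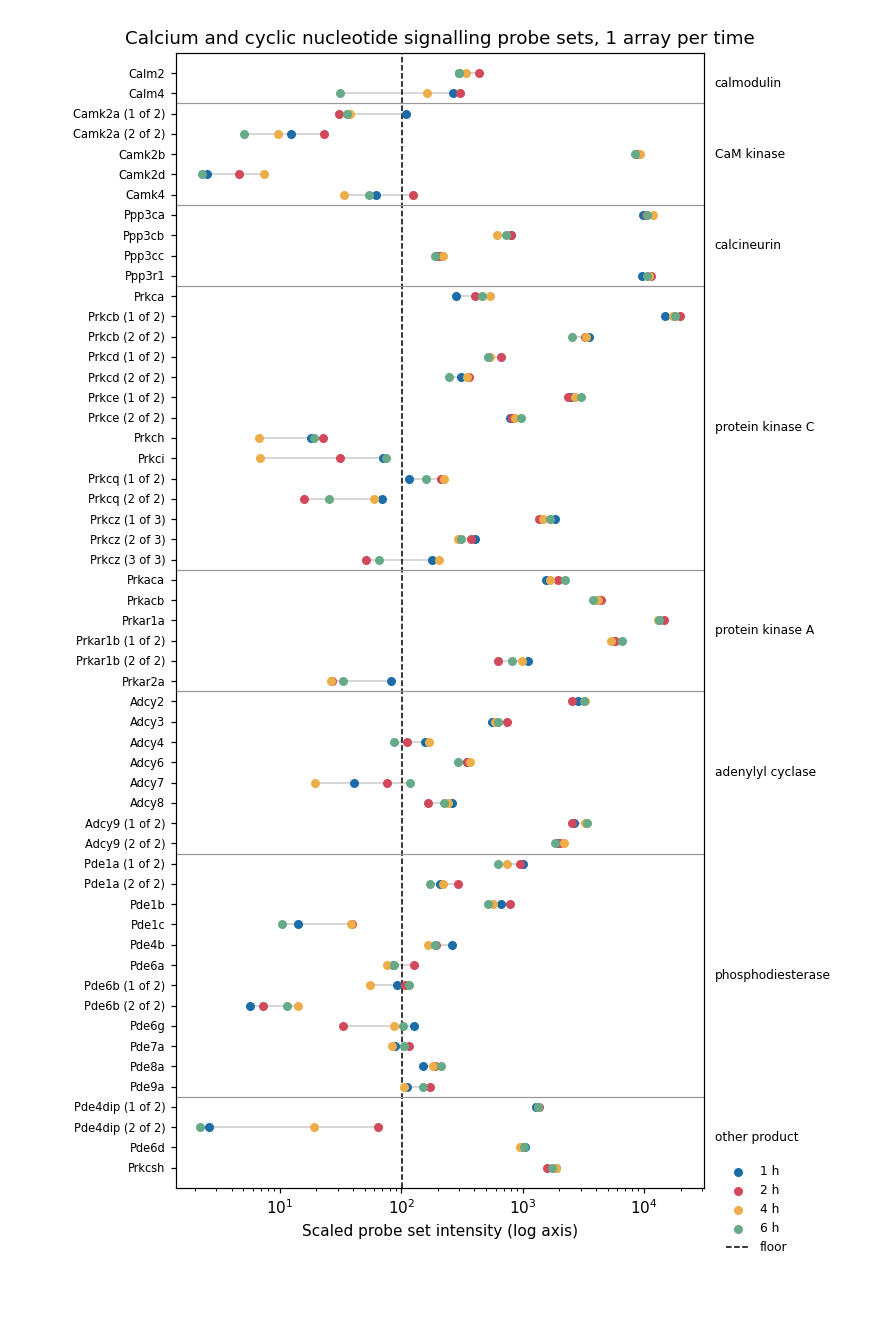
Scaled intensity (log axis) of each of the 55 member probe sets at 1, 2, 4 and 6 h after the last shock, 1 array per point, by enzyme family, with the floor of 100.8 as a dashed line. Probe sets well above the floor, such as Camk2b at 8470 to 9313 and Ppp3ca at 9827 to 11746, have points close together, while those below it are spread widely.

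The members varied over the hours about as much as all probe sets did. A probe set was counted as apart when its intensity on 1 array was at least 1.5-fold above, or below, that on each of the other 3. Of the 36 member probe sets above the floor on all 4 arrays, 0 were apart at any hour, beside 6.3% of the 6442 probe sets measured in the same way. By hour, the background for higher probe sets was 0.574%, 1.18%, 0.202% and 0.326%. For lower probe sets it was 0.931%, 1.12%, 1.01% and 1.16%. At a limit of 1.3-fold, 5 of the 36 were apart, Prkca and Prkcq lower at 1 h, Pde4b higher at 1 h, Pde1a (its dimmer probe set) higher at 2 h and Adcy8 lower at 2 h. At that limit 19% of all probe sets were apart. With a single array left out, some probe sets did reach the limit of 1.5-fold. Prkca was lower at 1 h without the 2 h array, and Pde1a (its brighter probe set) lower at 6 h without the 4 h array. Without the 6 h array, Prkcq was lower at 1 h, Pde9a higher at 2 h and Prkar1b lower at 2 h. Leaving an array out makes the limit easier to reach for any probe set. The share of all probe sets that then reach it was not computed, so these calls have no background.

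The ratio of the highest to the lowest array had a median of 1.33 over the members and 1.32 over all 6442 probe sets. It reached 1.5 in 9 member probe sets, or 25%, beside 27.9% of all. Those 9 read Prkcq (1.93-fold), Prkca (1.91), Prkar1b (1.75), Pde1a (1.69 and 1.61), Pde9a (1.64), Adcy8 (1.59), Pde4b (1.56) and Pde1b (1.53). The share depends on level. At a mean intensity of 500 or more it was 3 of 24 members, beside 12.4% of all, and among dimmer ones 6 of 12, beside 45.2%. The members' shares were thus near the background at either level. Without the 1 h array 5 member probe sets passed, without the 2 h array 4, without the 4 h array 8 and without the 6 h array 6, beside 19.8%, 17.1%, 20.3% and 19.6% of all probe sets.

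**Figure D2:**
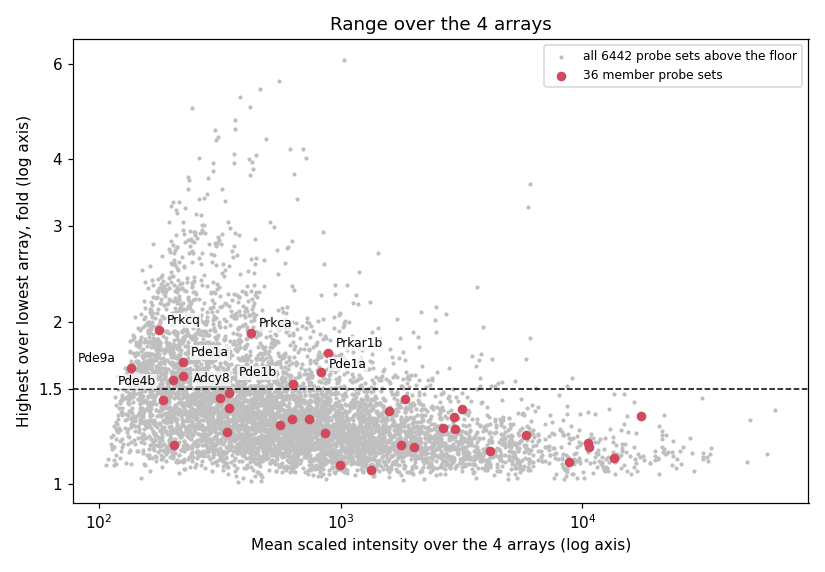
Highest over lowest of the 4 arrays (fold, log axis) against mean scaled intensity (log axis) for the 36 member probe sets above the floor (red) and all 6442 such probe sets (grey), with the 1.5-fold limit dashed. Of the 9 members above the line, 6 have a mean intensity under 500.

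As a set the members moved by little at any hour. Against the mean of the other 3 arrays, their median log2 difference was −0.06, 0.06, 0.01 and −0.02. The medians over all probe sets were 0.01, 0.01, 0.00 and 0.00. At 2 h, 23 of the 36 lay above the other hours, or 63.9% against 52.0% of all probe sets, and 13 were highest there, beside 28.7% of all. At 1 h, 13 of the 36 lay above the other hours, or 36.1% against 52.4% of all. Scaling to a common median, which moves all probe sets of an array alike, gave members' medians of −0.10 at 1 h and −0.02 at 2 h, beside −0.03 and −0.07 for all probe sets. In either scaling the members' median was below that of all probe sets at 1 h and above it at 2 h. A shift common to all probe sets of an array leaves that order unchanged, so the 2nd scaling is no separate check of it. Counts against the other hours moved with that shift, to 12 of 36 above at 1 h and 16 at 2 h, with 8 highest at 2 h. Shares of all probe sets under that scaling were not computed, so these counts have no background. In the main scaling the 6 h array was the lowest in 12 of the 36, beside 26.2% of all, and the 1 h array in 10, beside 22.8%. The 2 h array had the largest ratio of 3' to 5' actin control probe sets, 2.70 against 1.84, 1.79 and 1.74 at 1, 4 and 6 h. The same ratio for Gapdh was higher on every array, at 3.98, 4.82, 3.85 and 3.24, and also largest at 2 h. Such ratios can reflect RNA quality, and its part in the values was not tested.

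**Figure D3:**
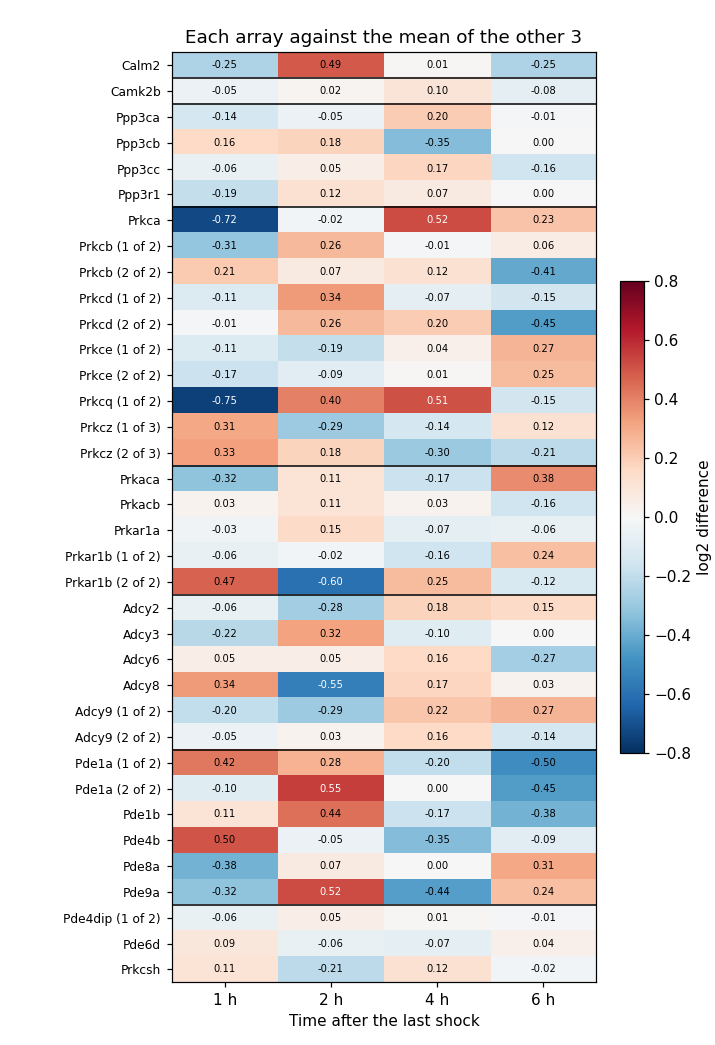
Log2 intensity on each array minus the mean of the other 3, for the 36 member probe sets above the floor on all arrays (rows, by family; columns, hours after the last shock). Prkcq at −0.75 and Prkca at −0.72 are the darkest blue cells at 1 h, and no column is of a single colour.

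Calmodulin, the calcium sensor on which the kinases and calcineurin depend, was read by a Calm2 probe set. It gave 299, 439, 341 and 298, a range of 1.47-fold with the 2 h array highest. Calm4, a calmodulin-like gene known from skin, gave 267, 305, 162 and 31.4. It was below the floor at 6 h only, which makes it at least 1.61-fold lower there than on each other array. Of 644 probe sets below the floor on a single array, 22.2% were likewise at least 1.5-fold above the floor on the other 3. Calm4 was 1 of 2 such members, Adcy4 being the other, with 112 as its lowest measured value.

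Calcium/calmodulin-dependent kinase II, the abundant kinase of the postsynaptic density, was measured through Camk2b, its beta subunit. The probe set gave 8606, 8926, 9313 and 8469.9. The highest array was 1.10-fold above the lowest, so the beta subunit was nearly level over the hours. Camk2a, the alpha subunit and a well-known transcript of forebrain excitatory neurons, was not readable here. Its brighter probe set gave 109.9 at 1 h and 30.5, 37.7 and 35.9 later, and the dimmer lay between 5.10 and 23.0. The 1 h value was 1.09 times the floor. Camk2d, the delta subunit, lay between 2.30 and 7.40, far below the floor. Camk4, a nuclear kinase that phosphorylates CREB, was above the floor at 2 h alone, at 124 against 61.5, 33.5 and 53.8. The CA1 marker Wfs1, at 1637 to 2608, and Neurod6, at 648 to 1263, were above the floor on all 4 arrays, so low Camk2a readings stood beside measurable markers of the same neurons.

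Calcineurin, the calcium-activated phosphatase that opposes these kinases, had 4 probe sets, all above the floor on the 4 arrays. Ppp3ca, the main brain catalytic subunit, gave 9827, 10294, 11746 and 10497. Ppp3r1, the regulatory subunit, gave 9649, 11341, 11038 and 10638. Both were lowest at 1 h, with ranges of 1.20-fold and 1.18-fold. Ppp3cb, a further catalytic subunit, gave 798, 806, 611 and 733 and was lowest at 4 h, when Ppp3ca was highest. Ppp3cc, the catalytic subunit best known from testis, gave 198, 209, 223 and 188. No calcineurin probe set spanned more than 1.32-fold.

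Protein kinase C had 14 probe sets for 8 genes, of which 10 probe sets of 6 genes lay above the floor on all arrays. Prkca, a classical calcium-dependent isoform, gave 284, 408, 540.2 and 466. The 1 h array stood below the other 3, with the 2 h value 1.44-fold and the 4 h value 1.91-fold above it. Prkcq, the theta isoform known from T cells, was also lowest at 1 h and highest at 4 h, with 116, 211, 224 and 159. Its other probe set did not reach the floor at any hour, and the 1 h value of the readable one was close to the floor. The 1 h array was the lowest in 4 of the 10 protein kinase C probe sets, beside 22.8% of all probe sets.

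Prkcb, the classical beta isoform, was read by a pair of probe sets that went different ways. The brighter gave 14760.3, 19775, 17242 and 17853, lowest at 1 h. The dimmer gave 3519, 3271, 3352 and 2549, highest at 1 h and lowest at 6 h. Only 1 of the 6 pairs of arrays had the same direction in both, so no course can be given for the gene. Prkcd, a calcium-independent isoform rich in thalamic neurons, had 2 probe sets in the same order on all 6 pairs of arrays. They gave 525, 663, 536 and 515, and 310.3, 359, 346 and 248, each highest at 2 h and lowest at 6 h. The name of the brighter Prkcd probe set marks it as one that other transcripts may share. Thalamic markers had 8 probe sets, 4 above the floor on all arrays and 2 below it on all. Their summed intensity, which includes values below the floor, was 1294, 1549.6, 1369 and 1156, likewise highest at 2 h and lowest at 6 h. The part of the thalamic markers in the Prkcd values was not tested. Tcf7l2, the defining thalamic marker, gave 121, 494, 471 and 359 on its brighter probe set and 142, 103, 60.1 and 92.4 on the other. The other thalamic probe sets above the floor on all arrays were not highest at 2 h. Lef1 gave 574, 507, 366 and 336 there, Zic1 164, 130, 142 and 173, and Rora 110, 153, 197 and 127.

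Prkce, another calcium-independent isoform, was highest at 6 h on both of its probe sets. The brighter gave 2486, 2385, 2687 and 3033, and the dimmer 785, 816, 864 and 977. At 6 h they were 1.22-fold and 1.24-fold above 1 h. The dimmer was the only member probe set that was higher at each later time, whatever the span, beside 3.9% of all probe sets. At a span of at least 1.5-fold 0 members were, beside 0.792%. Prkcz, an atypical isoform that needs neither calcium nor diacylglycerol and has been studied in memory maintenance, was highest at 1 h on both readable probe sets. They gave 1855, 1359, 1467 and 1686, and 407, 378, 294 and 309, and disagreed on which later array was lowest. The third Prkcz probe set gave 179 and 203 at 1 and 4 h and was below the floor at 2 and 6 h, at least 1.78-fold lower. Prkch and Prkci were below the floor on all 4 arrays.

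**Figure D4:**
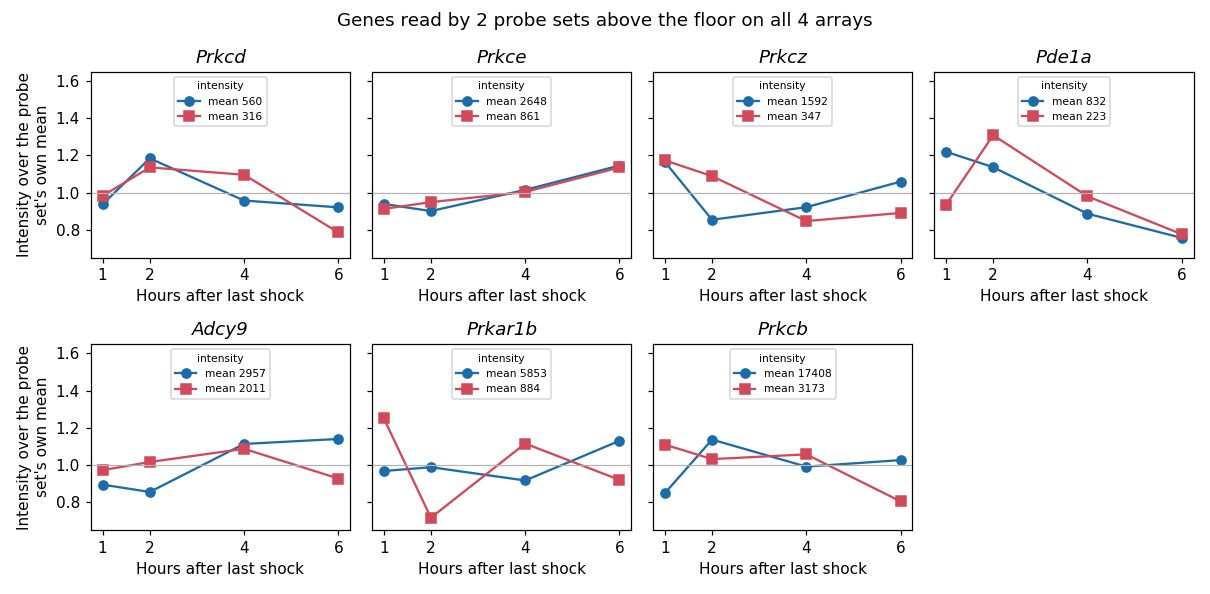
Intensity over each probe set's own mean across the 4 arrays, against hours after the last shock, for the 7 genes with 2 probe sets above the floor on all arrays (blue circles, brighter; red squares, dimmer). The lines nearly coincide for Prkce, peak together at 2 h for Prkcd, and cross for Prkcb and Prkar1b.

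Protein kinase A, the main effector of cyclic AMP, had 5 of its 6 probe sets above the floor on all arrays. Prkaca, the alpha catalytic subunit, gave 1552, 1939, 1676 and 2237, with the 6 h value 1.44-fold above that at 1 h. Prkacb, the beta catalytic subunit, gave 4205, 4385, 4205 and 3805, and was lowest at 6 h, when Prkaca was highest. Prkar1a, a regulatory subunit, gave 13339, 14657, 13085 and 13157, a range of 1.12-fold. Prkar1b, the neuronal regulatory subunit, was read by 2 probe sets. Its brighter probe set gave 5659.5, 5780.0, 5361 and 6612, with a range of 1.23-fold. The dimmer gave 1105, 632, 985 and 812, with 2 h lowest and a range of 1.75-fold. They shared a direction on 2 of 6 pairs of arrays, so the lower value at 2 h rests on a single probe set. Prkar2a was below the floor throughout, at 26.6 to 82.1.

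Genes switched on through protein kinase A are known to carry the cyclic AMP response element, at which CREB binds, and feedback on the pathway's own enzymes makes their promoters of interest. RefSeq promoter windows (GRCm38.p6, 250 bases before to 50 after a transcript start) were held for 30 of the 43 member genes, as 59 windows, some overlapping. The whole element, TGACGTCA, which reads the same on both strands, was found in 3 of the 59 windows, or 5.08%, and in 1.79% of all 32851 windows. The 3 belong to 2 genes, Prkar1a, where overlapping windows share 1 element, and Prkcz. Its short form, TGACG on either strand, which the whole element also contains, was found in 17 of 59 windows, or 28.8%, and in 20.8% of all. The elements of both genes are shown with 11 bases on each side, 5′ to 3′ on the gene's strand and with the element in capitals, at chr11:109650889-109650918 (plus strand) for Prkar1a and at chr4:155345778-155345807 (minus strand) for Prkcz. The element begins 7 bases before an annotated start in Prkcz. In Prkar1a it begins 49 bases before one annotated start and 38 bases after another.
Prkar1a: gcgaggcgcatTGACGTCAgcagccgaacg
Prkcz: ttgtttccgtgTGACGTCAgctcctccgta
Prkar1a had a range of 1.12-fold over the hours, and the brightest Prkcz probe set 1.37-fold, with its highest value at 1 h. The median range over all probe sets was 1.32-fold. A match describes the letters of a window and says nothing of CREB binding in these samples.

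Adenylyl cyclases, the membrane enzymes that make cyclic AMP, had 6 of 8 probe sets above the floor on all arrays. Adcy2 gave 2877, 2571, 3263 and 3209.7. The brighter probe set of Adcy9 had a like course, with 2643, 2526, 3290.3 and 3370.2, so both were lower at 1 and 2 h than at 4 and 6 h. The 5 probe sets for CA1 pyramidal markers, all above the floor, summed to 4158, 4174, 5775 and 5379.6, also lower at 1 and 2 h. The markers did not all move alike. Neurod6 gave 768, 648, 1263 and 1089, and Wfs1 1709, 1637, 2608 and 2205. Pou3f1 gave 484, 455, 355 and 359, higher at 1 and 2 h. Man1a gave 984, 1148, 1216 and 1486 on its brighter probe set and 213, 287, 332 and 240 on the other. The part of these markers in the Adcy2 and Adcy9 values, and in those of Prkca, likewise lower at 1 and 2 h, was not tested. The other Adcy9 probe set gave 1954, 2042, 2185 and 1864, lowest at 6 h, and matched the brighter on 2 of 6 pairs of arrays. Adcy8, a calcium/calmodulin-stimulated cyclase linked to hippocampal plasticity, gave 264, 166, 241 and 224. It was lowest at 2 h, where it was 1.59-fold below the 1 h value. Adcy3, known from olfactory neurons and neuronal cilia, gave 562, 741, 596 and 629, with 2 h highest. Adcy6, a cyclase inhibited by calcium, gave 347, 348, 369 and 294. Adcy4, at 156, 112, 170.1 and 87.8, was below the floor at 6 h alone, and Adcy7 was above it at 6 h alone, at 118. Adcy2, Adcy8 and the brighter Adcy9 probe set were thus lowest at 2 h, and Adcy3 was highest there.

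Phosphodiesterases, which end cyclic nucleotide signals, held 5 of the 9 member probe sets with a range of at least 1.5-fold, from 6 above the floor on all arrays, beside 27.9% of all probe sets. Of the 6, 4 had a mean intensity under 500, where 45.2% of all probe sets reach that range, and 3 of these 4 did. The brighter Pde1a probe set and Pde1b, with means of 832 and 637, also reached it. At a mean of 500 or more 12.4% of all probe sets do. Pde1a and Pde1b encode enzymes stimulated by calcium and calmodulin, a direct link between both messengers. The brighter Pde1a probe set gave 1015, 946, 738 and 629. It was lower at each later time and spanned 1.61-fold, the only such member at 1.5-fold or more, beside 1.61% of all probe sets. It was also the only one lower at each later time whatever the span, beside 4.86%. Its name marks it as one that other transcripts may share. The dimmer gave 209, 293, 219 and 173, highest at 2 h and also lowest at 6 h. Pde1b gave 665, 793, 575 and 517, again highest at 2 h and lowest at 6 h. Between 2 h and 6 h all 3 probe sets were lower at each later array, and between 1 h and 2 h only the brighter Pde1a probe set was lower. Scaling to a common median left the range of Pde1b at 1.41-fold.

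Several marker sums were also lowest at 6 h. Purkinje cell markers, with 4 probe sets, summed to 3347, 3004, 2937 and 2515 from 1 to 6 h, mostly through Calb1, which hippocampal neurons also express. Striatal markers, with 8 probe sets, 4 above the floor on all arrays and 3 below it on all, summed to 3263, 3346, 3344 and 2892. Endothelial markers, with 9 probe sets, 3 above the floor on all arrays and 3 below it on all, summed to 1472, 1220.4, 1328 and 998. These sums include values below the floor, which are only bounds. Choroid plexus markers, by contrast, were highest at 6 h. Their 8 probe sets, 2 above the floor on all arrays and 3 below it on all, summed to 1727, 1371, 1951 and 7785. Most of the 6 h sum came from Ttr, the defining marker, at 111, 89.9, 198 and 4481.5. The part of all these markers in the Pde1a and Pde1b values was not tested. Nor was the part of choroid plexus tissue in other values at 6 h, such as those of Prkaca and Prkce. In bulk tissue, fewer cells of a type and less RNA per cell cannot be told apart.

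Pde4b, a cyclic AMP-specific phosphodiesterase, gave 259.7, 195, 167 and 191. It was highest at 1 h, 1.56-fold above 4 h, and 1.49-fold after scaling to a common median. Pde9a, specific for cyclic GMP, gave 113, 174, 106 and 150.1, all close to the floor. Pde8a, a cyclic AMP-specific enzyme, gave 149.6, 188, 182 and 214, lowest at 1 h and highest at 6 h. After scaling to a common median it was higher at each later time, from 147 to 222. That scaling gave all probe sets median log2 differences of −0.03, −0.07, 0.04 and 0.07. The share of all probe sets with such a course was not computed there. Pde7a was above the floor at 2 and 6 h only, at 116 and 106. The rod phosphodiesterase genes Pde6a, Pde6b and Pde6g, whose products act in vision, were above it on 1 or 2 arrays with no value above 128, and Pde1c was below it on all.

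Promoter windows that hold the short form are shown for Pde1a and Pde4b, phosphodiesterase genes with ranges above 1.5-fold. A Prkar1b window also holds it, beginning 49 bases before the start, and is not printed. No short form was found for Pde1b, Pde9a, Adcy8, Prkca or Prkcq, which also spanned 1.5-fold, though not every member gene had a window. It was found in 14 of the 30 member genes with a window, among them genes of smaller range such as Prkaca (1.44-fold) and Ppp3r1 (1.18-fold). Each printed stretch is the 250 bases before an annotated start, 5′ to 3′ on the gene's strand. CGTCA, the short form on the opposite strand, is in capitals. The Pde1a stretch lies at chr2:80038903-80039152 (minus strand) and belongs to 1 of 4 annotated starts. The Pde4b stretch lies at chr4:102421305-102421554 (plus strand), also 1 of 4. The short form begins 166 bases before the start in Pde1a and 34 bases before it in Pde4b. Neither stretch holds the whole element. Which start the probe sets read was not analysed here.
Pde1a: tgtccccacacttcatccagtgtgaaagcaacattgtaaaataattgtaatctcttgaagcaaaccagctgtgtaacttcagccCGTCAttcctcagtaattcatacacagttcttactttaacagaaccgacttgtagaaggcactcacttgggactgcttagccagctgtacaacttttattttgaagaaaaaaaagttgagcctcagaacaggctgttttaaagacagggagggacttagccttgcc
Pde4b: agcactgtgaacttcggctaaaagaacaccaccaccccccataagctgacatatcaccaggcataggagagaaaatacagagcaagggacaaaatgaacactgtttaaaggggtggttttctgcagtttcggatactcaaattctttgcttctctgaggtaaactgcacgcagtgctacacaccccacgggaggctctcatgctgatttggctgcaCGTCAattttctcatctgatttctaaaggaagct

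The 3 genes taken in by name were level over the hours. Pde4dip, which encodes the scaffold myomegalin, gave 1294, 1374, 1345 and 1329 on its readable probe set. Pde6d, a carrier of prenylated proteins, gave 1040.4, 966, 957 and 1017. Prkcsh, a subunit of glucosidase II in the endoplasmic reticulum, gave 1885, 1597, 1892 and 1759. Their ranges were 1.06-fold, 1.09-fold and 1.18-fold.

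Genes around the enzymes in the pathway were followed in 5 lists. Upstream G proteins and phospholipases C had 21 probe sets above the floor on all arrays, and 1 was apart. It was a Gna11 probe set, lower at 1 h, with 288, 912, 524 and 1159, while the other Gna11 probe set gave 1224, 1469, 1442 and 1304. Gnas, the stimulatory G protein that couples receptors to the cyclases, gave 48144, 50936, 46348 and 46472 on its readable probe set. Anchors, inhibitors and calmodulin-binding regulators had 17 probe sets, of which 1 was apart, an Akap8 probe set lower at 6 h, with 227, 334, 219 and 109. A further Akap8 probe set gave 129, 191, 127 and 202, highest at 6 h. Nrgn, neurogranin, which binds calmodulin in dendrites, gave 3619, 4399, 4521 and 4781. Rcan1, an inhibitor of calcineurin, gave 1001, 754, 1088 and 767, lower at 2 and 6 h.

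The cyclic GMP arm had 2 probe sets above the floor of 12, and 1, for the natriuretic peptide receptor Npr3, was apart, higher at 2 h, with 148, 326, 216 and 169.9. The soluble guanylate cyclase subunit Gucy1b1 gave 531, 469, 589.7 and 653. Other calcium sensors and buffers had 18 probe sets, with 1 apart, a dim Pvalb probe set higher at 2 h, with 214, 344, 144 and 148. The bright Pvalb probe set, at 3161, 2592, 3026 and 3437, was lowest at that hour. Substrates and transcription factors had 18 probe sets and 0 apart. There the repressor and activator gene Crem gave 264, 228, 233 and 177 on its brighter probe set, and each of the 3 Creb1 probe sets was below the floor on 2 arrays or more. In all, 4 of the 76 probe sets of these lists were apart, or 5.26%, beside 6.3% of all probe sets. The other readable probe sets of Akap8 and Pvalb went the opposite way at that hour, that of Gna11 was also lowest at 1 h but spanned 1.20-fold, and Npr3 had no other above the floor on all arrays.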

How the data were processed

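The deposited table gives a linear intensity for each probe set on 4 arrays, already brought to 1 scale by the authors: every array had a mean of 500.3 once 2% of its values at either end were set aside. The software behind the values is not given in the sources used here, nor are detection calls. Symbols came from the platform annotation: of 12422 probe sets other than the 66 controls, 10833 had 1 symbol, 396 several and 1193 none, and all 43 member genes were found in RefSeq with 0 symbols changed. Arrays were rescaled on the trimmed mean without controls (factors 0.999 to 1.001), and log2 was taken for differences. With 1 array per time no test was run, and precision is limited by having 4 arrays. The members and gene lists were chosen with earlier results of these data known. All member genes could be named, with values on every array for those spanning 1.5-fold and for a list of isoforms. The bound for Calm4, the split at a mean of 500 and the markers set beside a member were chosen after the values were seen. Alternatives were other scalings, floors, fold limits and probe set choices, and each array left out. The steps were checked on simulated arrays. Values were computed in Python 3.11.15 with pandas 2.3.3 and NumPy 2.4.6, and plotted with matplotlib 3.10.9.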

Additional observations from a re-analysis of the deposited data

How the results depend on the processing

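The medians of the members stayed within 0.1 (log2) of the main values in every alternative, from −0.10 to −0.04 at 1 h, −0.02 to 0.09 at 2 h, −0.02 to 0.06 at 4 h and −0.06 to 0.06 at 6 h, with a sign that is not fixed at 2, 4 and 6 h. The lowest value at 2 h and the highest at 6 h came from scaling to a common median, under which all probe sets had medians of −0.07 and 0.07. The count of member probe sets apart was 0 under every scaling. At 2-fold it was 0 of 36, beside 0.931% of all probe sets, and at 1.3-fold 5 of 36, beside 19%. It was 0 to 3 with an array left out, and 6 of 45 with a floor lowered to the 20th percentile. The 9 with a range of at least 1.5-fold became 17 of 45 with that floor, 4 of 28 when it was moved to the 60th percentile and 0 at 2-fold. They became 3 of 24 at a mean intensity of at least 500 (added after the data were seen) and 4 to 8 with an array left out. One-way courses numbered 1, 2 after scaling to a common median and 0 with plain probe sets alone. Of the pathway lists, 4 probe sets were apart, 13 and 1 with the lower and the higher floor, 2 with plain probe sets alone, 12 at 1.3-fold and 1 at 2-fold. A lower floor or limit admits dimmer probe sets or smaller differences by construction. Shares of all probe sets were not computed for the other scalings, for the other floors, for plain probe sets alone or for a range of 2-fold. Pde4b had a range of 1.495 after quantile normalization. No paired analysis was possible because each time has 1 array. Probe sets near the floor, among them Prkcq and Pde9a, are those whose signal over background limits the reading most.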
